A study of Mus musculus with 4 samples.

Results

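The genes of the proteasome, the protease complex that degrades ubiquitin-tagged proteins, were examined in the liver transcriptome of wild-type (WT) and *Usp21* knockout (KO) mice. Members were taken by symbol: every gene named Psma, Psmb, Psmc, Psmd, Psme, Psmf or Psmg followed by its number was kept when its mean over the libraries was at least 1 TPM, a share of all transcripts that corrects for gene length and library size. Of 49 matching symbols 46 were kept, out of 9581 genes that reached this level and 35739 genes in the table. The other 3 were *Psma8*, the alpha subunit of germ cells, at 0.161 to 0.787 TPM, *Psme2b*, at 0 to 0.770 TPM, and *Psmb11*, the thymus-restricted beta subunit, which was listed at 0 in all 4 libraries. The members were 7 constitutive alpha and 7 constitutive beta subunits of the core particle, 3 immunoproteasome subunits, 6 ATPases and 11 non-ATPases of the regulatory particle, 4 activators, and 8 genes for an inhibitor and assembly chaperones. They lay on 16 chromosomes, with 8 on chromosome 11, 6 on chromosome 2 and 5 on chromosome 14.

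USP21 is a deubiquitinase, an enzyme that takes ubiquitin off proteins, and the study compared liver RNA of WT and *Usp21* KO littermates by sequencing on an Illumina MiSeq. There were 2 libraries of each genotype, called WT replicates 2 and 3 and *Usp21* KO replicates 1 and 3 from the numbers in their titles. Whether each library came from 1 mouse is not given in the sources used here. The KO allele lacked exons 3 and 4 of *Usp21*, excised with Cre and loxP, with a stop codon early in exon 5, and the loss was constitutive rather than limited to the liver. KO alleles came from a B6 × 129/Sv mixed background. The mice of the study were 10 to 11 weeks old and were kept on a normal diet with 12 h of light and 12 h of dark. The driver of Cre and the sex of the mice sequenced are not given in the sources used here. With 2 libraries a genotype, p-values measure the spread between these libraries only.

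The core particle of the proteasome is a barrel of stacked rings, with alpha subunits in the outer rings and beta subunits in the inner rings, and 3 of the beta subunits, *Psmb5*, *Psmb6* and *Psmb7*, carry the protease sites. The regulatory particle caps the barrel: its non-ATPases bind and strip ubiquitin, and its ATPases unfold the substrate and thread it in. Interferon signalling induces *Psmb8*, *Psmb9* and *Psmb10*, which replace *Psmb5*, *Psmb6* and *Psmb7* in the immunoproteasome and favour peptides for MHC class I. The transcription factor NRF1 (gene *Nfe2l1*) raises proteasome genes together through antioxidant response elements when proteasome activity is short.

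All libraries had the profile of liver, with hepatocyte markers such as *Alb* and *Apoa1* summing to between 51026 and 73554 TPM and no marker of that list at 0. *Usp21* stood at 4.07 and 6.29 in WT against 1.64 and 2.93 TPM in KO, so the KO pair lay under the WT pair and neither was at 0. A whole-gene value also counts reads outside the deleted exons. TPM keeps no read depth, so the depth behind these values is unknown. Between 12876 and 13620 genes were above 0 in a library. Bulk tissue was sequenced, and fewer cells of a type and less RNA per cell cannot be told apart.

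Because NRF1 acts on proteasome promoters, the windows of RefSeq (GRCm38.p6), from 250 bases before to 50 after the transcript start, were searched on both strands for the antioxidant response element core TGACNNNGC. Windows were found for 39 of the 46 members. The core was present in 6 of them, 15.4%, against 14% of 27025 genes, a share near that of all genes. The 6 stretches of 30 bases that hold it are shown with the core in capitals, since they include 2 of the 3 constitutive protease subunits and the members *Psmc6* and *Psme4* described later:
*Psmb5*, chr14:54618023-54618052, minus strand, core from base -47: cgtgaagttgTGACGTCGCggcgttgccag
*Psmb6*, chr11:70525338-70525367, plus strand, core from base -9: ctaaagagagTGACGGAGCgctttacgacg
*Psmc6*, chr14:45329587-45329616, plus strand, core on the other strand from base -227: ccagccagtaGCTAAGTCAggcattgctca
*Psmd9*, chr5:123228149-123228178, plus strand, core from base -31: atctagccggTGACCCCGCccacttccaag
*Psmd12*, chr11:107479278-107479307, plus strand, core on the other strand from base -247: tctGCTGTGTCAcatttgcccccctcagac
*Psme4*, chr11:30771758-30771787, plus strand, core on the other strand from base -7: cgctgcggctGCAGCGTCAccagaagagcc
Each is written along its gene, and positions count from the RefSeq start. Among the other motifs, the ETS site CCGGAAG was in 35.9% of member genes and 9.93% of all genes, the GC box GGGCGG in 59.0% and 38.2%, and the CCAAT box in 33.3% and 41.1%. For interferon, the interferon-gamma activation site TTCNNNGAA was in 3 member genes, 7.69% against 9.55% of all genes, and the interferon-stimulated response element core in 5 (both strands), 12.8% against 3.99%. The activation site was in *Psmb8*, *Psmd2* and *Psmg1*, and the response element core in *Psmb3*, *Psmd4*, *Psmd9*, *Psme1* and *Psmg4*. The interferon-induced *Psmb9* and *Psme2* had a window with neither motif. A pair of these matches is shown because both genes are interferon-induced:
*Psmb8*, chr17:34198088-34198117, plus strand, activation site from base -97: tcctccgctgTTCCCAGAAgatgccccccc
*Psme1*, chr14:55578493-55578522, plus strand, response element on the other strand from base 10: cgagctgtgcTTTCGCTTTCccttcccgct
A match gives letters only and does not show that a factor was bound, and a window without a match says nothing of sites outside it.

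Proteasome genes were expressed in all 4 libraries at a similar total. Their summed TPM was 2869 and 2786 in WT and 3034 and 2859 in KO, which is 0.279% to 0.304% of each library. The KO mean was 4.22% above the WT mean, but KO replicate 3 lay below WT replicate 2, so the genotypes overlapped. Mean levels of single members ran from 10.5 TPM for the chaperone *Psmg3* to 188 TPM for the protease subunit *Psmb6*, a range of 17.8-fold with a median of 50.1 TPM. The order of the 46 members was nearly the same in every library, with Spearman correlations across genes of 0.961 to 0.978 between libraries. These are across genes that share a library and are given as a description.

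The median core subunit was expressed above the median regulatory one, though *Psma2* (39.0 TPM) lay below all 6 ATPases. Per-gene means were 39.0 to 151 TPM for constitutive alpha subunits and 88.1 to 188 TPM for constitutive beta subunits. They were 39.9 to 86.0 TPM for ATPases and 31.4 to 85.3 TPM for non-ATPases. In each library the median alpha subunit stood at 1.51 to 2.08 times the median ATPase, and the median beta subunit at 1.89 to 2.16 times. The lowest of these alpha ratios was in KO replicate 3 and the others were 1.93 or more. The immunoproteasome subunits, at 10.99 to 32.6 TPM, lay below every constitutive core subunit, and the inhibitor and chaperones lay between 10.5 and 21.8 TPM. Neighbours in this order often did not differ beyond their spread, as with *Psma7* at 97.96 to 122 TPM and *Psma6* at 102 to 119 TPM.

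**Figure D1:**
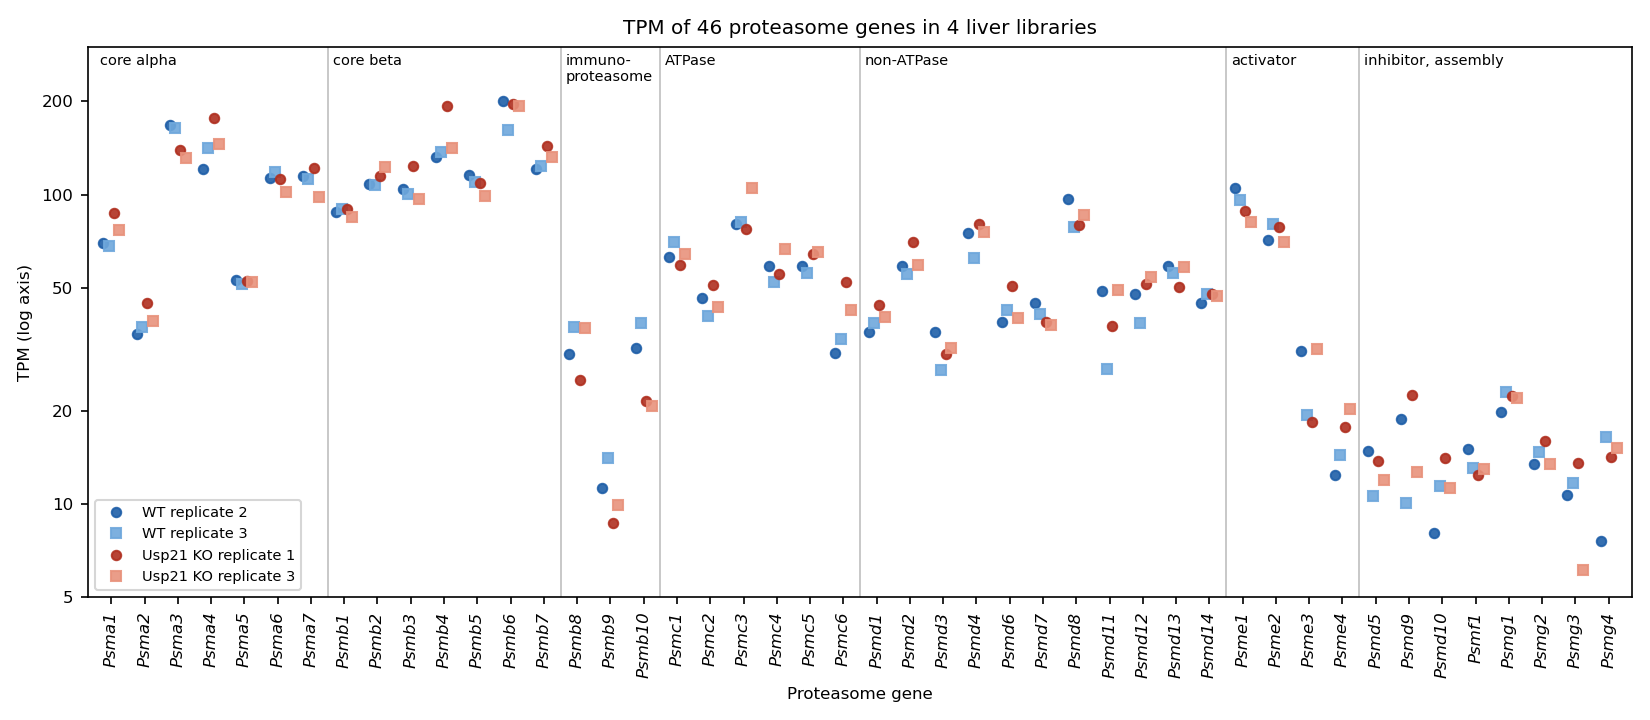
TPM on a log axis of the 46 proteasome genes, grouped by role, with 1 point for each of the 4 libraries. Constitutive core genes sit highest, up to 200 TPM for *Psmb6*, and the inhibitor and chaperone genes lowest, down to 6.10 TPM for *Psmg3* in KO replicate 3.

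The genotypes were then compared gene by gene with limma on log2(TPM + 1), over all 9581 genes. No member passed an adjusted p (Benjamini-Hochberg) under 0.05, against 0.0835% of all genes (8 genes). At an unadjusted p under 0.05 there were 2 members, 4.35%, against 10.5% of all genes. These were *Psmb10*, lower in KO, where 2.04% of all genes were called in that direction, and *Psmc6*, higher in KO, where 8.45% were. Log2 differences of members (KO minus WT) ran from -0.70 to 0.53, so none reached 2-fold, against 3.68% of all genes. The 95% interval lay within 2-fold in both directions for 40 of 46 members, 87.0%, against 56.4% of all genes, and the exceptions were *Psmb10*, *Psmc6*, *Psmd11*, *Psmd9*, *Psmg3* and *Psmg4*. The 56.4% is not matched for level. The lowest mean was 10.5 TPM for members and 1.00 TPM for all genes. The median standard error was 0.18 for members and 0.26 for all genes.

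Members also differed little between libraries of the same genotype. The median absolute log2 difference between genotypes was 0.15 for members, 0.26 for all genes and 0.22 for the 4025 genes whose mean reached 10 TPM, as that of every member did. Between the 2 WT libraries the median absolute difference of members was 0.14 and between the 2 KO libraries 0.16. For all genes these replicate differences were 0.24 and 0.29, and for the 4025 genes whose mean reached 10 TPM they were 0.21 and 0.24. The log2 difference was above 0 for 28 members, 60.9%, against 66.7% of all genes. Its median was 0.073 for members, 0.15 for all genes and 0.087 for the 4025 genes whose mean reached 10 TPM.

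In 21 members, 45.7%, the 2 genotypes did not overlap, against 45.3% of all genes. Both KO libraries exceeded both WT libraries in 13 members, 28.3%, against 34.4% of all genes, and both lay below in 8, 17.4%, against 10.9%. The 13 were *Psma1*, *Psma2*, *Psma4*, *Psmb2*, *Psmb4*, *Psmb7*, *Psmc5*, *Psmc6*, *Psmd1*, *Psmd2*, *Psmd4*, *Psmd12* and *Psme4*, mostly constitutive core and regulatory subunits. The 8 were *Psma3*, *Psma6*, *Psmb5*, *Psmb9*, *Psmb10*, *Psmd7*, *Psme1* and *Psmf1*. These directions depend on how the libraries are scaled. With each library scaled to the same upper quartile, the median of all genes shifted by 0.11 to 0.036, and 19 members, 41.3%, were above 0 against 54% of all genes. Both KO libraries then exceeded both WT libraries in 4 members (*Psma1*, *Psmb7*, *Psmc6* and *Psme4*) and lay below in 14, that is 8.70% above, against 24.5% of all genes, and 30.4% below, against 18.6%. The unadjusted limma p was then under 0.05 for 3 members, *Psma3*, *Psmb10* and *Psme1*, 6.52%, against 9.17% of all genes. The median of members minus that of all genes was -0.077 as deposited and -0.092 after this scaling. All genes are not matched for level here. Genes whose mean reached 10 TPM had a median of 0.087 as deposited, near the 0.073 of members.

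**Figure D2:**
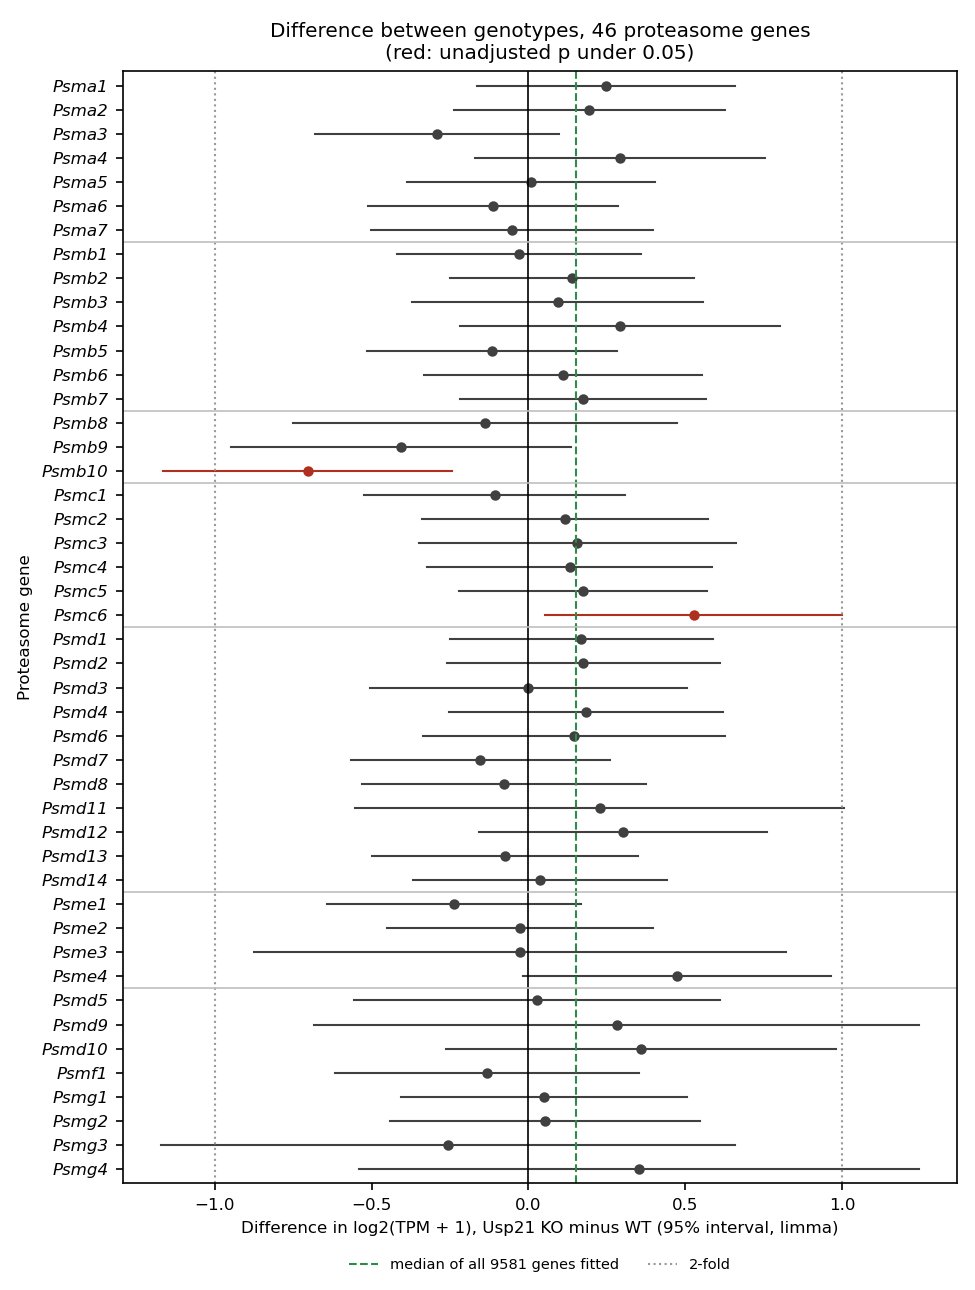
Difference between genotypes in log2(TPM + 1), *Usp21* KO minus WT, for the 46 proteasome genes, with 95% intervals from limma, a dashed line at the median of all genes and dotted lines at 2-fold. Most intervals include 0, and the 2 in red, *Psmb10* at -0.70 and *Psmc6* at 0.53, have an unadjusted p under 0.05.

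Among the 7 alpha subunits, which form the gated outer rings, none had an unadjusted p under 0.05, 3 had the KO pair above the WT pair (42.9%, against 34.4% of all genes) and 2 had it below (28.6%, against 10.9%). *Psma4* was at 121 and 142 in WT against 177 and 146 TPM in KO, a log2 difference of 0.29 (SE 0.19, limma adjusted p = 0.578). *Psma1* stood at 69.7 and 68.1 in WT against 87.5 and 76.7 TPM in KO, and *Psma2* at 35.3 and 37.3 against 44.6 and 38.9 TPM. All of these had KO replicate 1 as the highest library. *Psma5* was nearly level, at 52.8 and 51.3 in WT against 52.5 and 52.2 TPM in KO, with a log2 difference of 0.0090 (95% interval -0.39 to 0.40). *Psma6* and *Psma7* had log2 differences of -0.11 and -0.051.

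*Psma3* (chromosome 12, 70974621 to 70996347, GRCm38) was the alpha subunit with the highest mean and had the largest difference below 0 after the immunoproteasome genes *Psmb10* and *Psmb9*. It was at 167 and 165 in WT against 140 and 131 TPM in KO, a log2 difference of -0.29 (SE 0.16, limma adjusted p = 0.524). The KO pair lay under the WT pair, which were close to each other. *Psma3* has a processed pseudogene, *Gm13835*, on chromosome 6 (31141979 to 31142663), a copy of its RNA without introns. All stretches of 31 bases in the *Gm13835* transcript, 100%, also occur in *Psma3* transcripts, and 16.2% of the stretches of *Psma3* occur in *Gm13835*.

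*Gm13835* had a listed level of 0 in WT replicates 2 and 3, and of 84.0 and 55.5 TPM in KO replicates 1 and 3 (limma with Benjamini-Hochberg adjustment, adjusted p = 0.00237), which made it 1 of the 8 genes of the whole table past the adjusted threshold. Read assignment between identical stretches is an estimate, so the split between the 2 genes is uncertain. Added together, *Psma3* and *Gm13835* were at 167 and 165 in WT against 224 and 187 TPM in KO. The sum had a log2 difference of 0.30 where *Psma3* alone had -0.29, so the direction of *Psma3* turned with the treatment of its copy. This sum was formed after the values were seen, and whether the KO reads came from *Psma3* or from *Gm13835* was not tested. Of the other genes with at least 50% of their 31-base stretches in a member, 4 were above 0 and none of them exceeded a mean of 0.306 TPM.

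**Figure D3:**
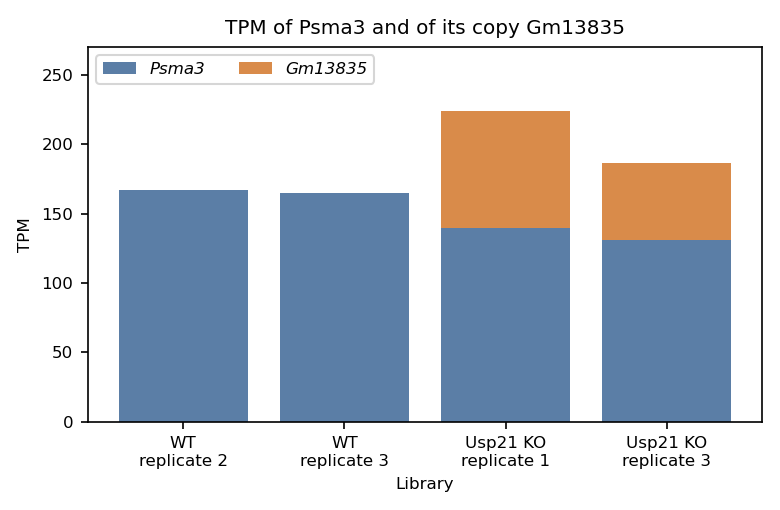
TPM of *Psma3* (blue) with that of its processed pseudogene *Gm13835* (orange) stacked on it, for each of the 4 libraries. The *Psma3* part is lower in both KO libraries, 140 and 131 TPM, and the stack is higher, 224 and 187 TPM, because *Gm13835* is listed at 0 in WT.

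Among the 7 constitutive beta subunits, which form the proteolytic inner rings, none had an unadjusted p under 0.05 and the median log2 difference was 0.11, which turned to -0.024 after upper quartile scaling. *Psmb5*, the chymotrypsin-like subunit, was at 116 and 110 in WT against 109 and 99.3 TPM in KO (log2 difference -0.12, SE 0.16, limma adjusted p = 0.794). *Psmb6*, the caspase-like subunit, was at 200 and 162 in WT against 196 and 193 TPM in KO (log2 difference 0.11, SE 0.18, limma adjusted p = 0.830). *Psmb7*, the trypsin-like subunit, was at 121 and 124 in WT against 143 and 133 TPM in KO (log2 difference 0.17, SE 0.16, limma adjusted p = 0.689). The KO libraries were thus both lower for *Psmb5*, both higher for *Psmb7* and within the WT range for *Psmb6*, and the differences were 7.33% to 12.9% of the WT mean in size. *Psmb5* shares 59.8% of its 31-base stretches with another expressed gene, the pseudogene *Gm3375*, which was at 0.301 TPM in KO replicate 1 and at 0 elsewhere. Exons of *Psmb7* overlap those of *Nek6* on the opposite strand, at a mean of 17.6 TPM, and the strand setting of the quantification is not given in the sources used here.

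The structural beta subunits *Psmb1*, *Psmb2*, *Psmb3* and *Psmb4* had log2 differences of -0.030, 0.14, 0.094 and 0.29. *Psmb4* had the largest, with 132 and 138 in WT against 194 and 141 TPM in KO (SE 0.20, limma adjusted p = 0.607). KO replicate 1 alone stood well above the others, and without it the log2 difference was 0.067. Without KO replicate 3 its unadjusted limma p was under 0.05.

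The immunoproteasome was the class with the lowest median log2 difference, -0.41 as deposited and -0.53 after upper quartile scaling. Summed over *Psmb8*, *Psmb9* and *Psmb10* it was at 73.8 and 89.9 in WT against 55.3 and 67.8 TPM in KO, so the KO pair lay under the WT pair, with a difference of the means of -24.8% of WT. *Psmb10* (chromosome 8, 105935735 to 105938444), the inducible trypsin-like subunit, had the largest difference of the 46 members. It stood at 31.9 and 38.5 TPM in the WT libraries (35.2 ± 4.64, SD, n = 2) against 21.5 and 20.8 TPM in the KO libraries (21.1 ± 0.485, SD, n = 2). The log2 difference was -0.70 (SE 0.19, 95% interval -1.17 to -0.24, limma adjusted p = 0.464). It lay between -0.84 and -0.57 when each library was left out in turn, and its unadjusted limma p was over 0.05 without WT replicate 3 and under it without each of the others. None of its 31-base stretches occur in another gene.

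*Psmb8* and *Psmb9* lie next to each other on chromosome 17, in the MHC region, at 34197721 to 34201454 and 34181987 to 34187764, with the peptide transporter genes *Tap1* between them and *Tap2* beyond *Psmb8*. *Psmb9*, the inducible caspase-like subunit, was at 11.3 and 14.1 in WT against 8.68 and 9.90 TPM in KO (log2 difference -0.41, SE 0.22, limma adjusted p = 0.522). *Psmb8*, the inducible chymotrypsin-like subunit, was at 30.6 and 37.3 in WT against 25.2 and 37.2 TPM in KO (log2 difference -0.14, SE 0.25, limma adjusted p = 0.846). Both KO libraries were low for *Psmb9*, but for *Psmb8* KO replicate 3 was level with the higher WT library, and the difference was 0.13 without KO replicate 1. None of the 3 immunoproteasome genes had a log2 difference above 0, against 66.7% of all genes. Both KO libraries lay below both WT libraries in 2 of the 3, against 10.9% of all genes. A list of 3 genes is too short for a result about the class, and differences between the 3 were not tested.

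Each inducible subunit was also set against the constitutive subunit it replaces. The TPM ratio of *Psmb10* to *Psmb7* was 0.264 and 0.311 in WT and 0.150 and 0.157 in KO, a log2 difference of the means of -0.91. That of *Psmb9* to *Psmb6* was 0.0564 and 0.0869 in WT and 0.0443 and 0.0513 in KO, a log2 difference of -0.58. For both pairs the genotypes did not overlap, but an exact two-sided permutation test of 2 against 2 libraries cannot go below p = 0.333, the value reached (0.5 after Benjamini-Hochberg adjustment over the 3 ratios). The ratio of *Psmb8* to *Psmb5* was 0.264 and 0.340 in WT and 0.231 and 0.374 in KO, with the 2 KO libraries on either side of the WT ones (exact permutation p = 1).

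**Figure D4:**
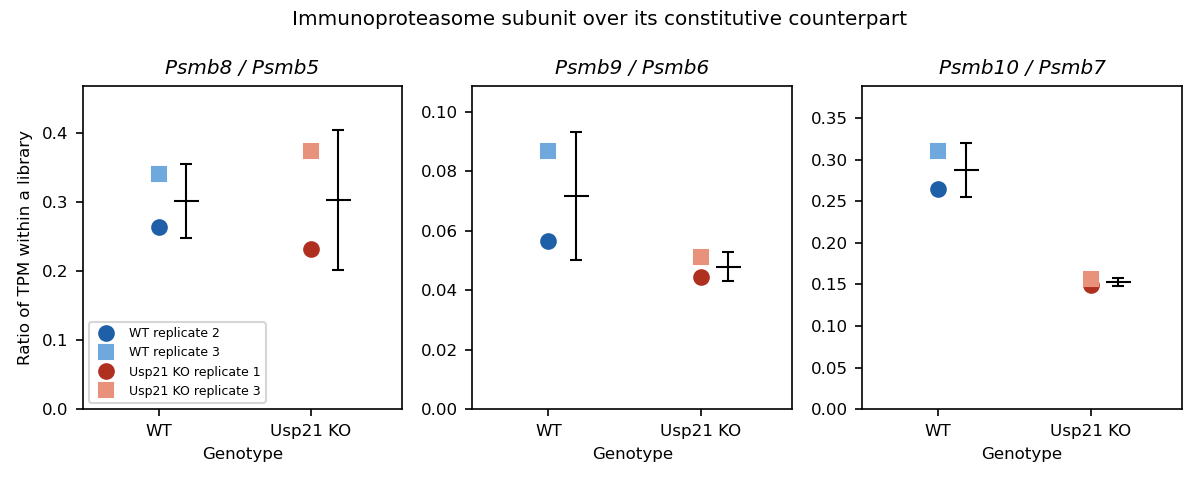
TPM ratio of each immunoproteasome subunit to the constitutive subunit it replaces, with 1 point for each library and, beside them, the mean ± SD of each genotype (n = 2). *Psmb10*/*Psmb7* is 0.264 and 0.311 in WT and 0.150 and 0.157 in KO, *Psmb9*/*Psmb6* is lower in both KO libraries, and *Psmb8*/*Psmb5* overlaps.

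Immune cells express the immunoproteasome strongly, so their markers are given beside it. Summed Kupffer cell markers (5 genes, liver macrophages) were at 87.0 and 96.0 in WT against 49.5 and 129 TPM in KO. Summed markers of other leukocytes (8 genes) were at 139 and 148 in WT against 118 and 161 TPM in KO. In both sums KO replicate 1 was the lowest library and KO replicate 3 the highest, the same order as for *Psmb8* within KO. *Psmb10* was low in both KO libraries. Of the other leukocyte markers *Lyz2* (25.7 to 59.8 TPM) and *Cd74* followed this order and the rest did not. *Coro1a* was highest in KO replicate 1, at 5.21 TPM, and lowest in KO replicate 3, at 1.64 TPM. None of the 10 markers fitted had an unadjusted p under 0.05, and the part of these cells in the immunoproteasome values was not tested. Of 9 fitted genes of MHC class I presentation and interferon signalling, 2 had a log2 difference above 0, 22.2%, against 66.7% of all genes, and none had an unadjusted p under 0.05, with a median of -0.14. Both KO libraries lay below both WT libraries in 4 of these 9 genes, against 10.9% of all genes, and above in 1, against 34.4%. *Tap1*, a subunit of the peptide transporter, was at 4.58 and 9.92 in WT against 3.91 and 4.72 TPM in KO, and overlapped. *Nlrc5*, an activator of MHC class I genes, was at 0.689 and 0.282 in WT against 0.638 and 2.12 TPM in KO, a mean under 1 TPM, and was not fitted.

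Among the 6 ATPases, which form the motor ring of the regulatory particle, 5 had a log2 difference above 0, 83.3%, against 66.7% of all genes. The class sum was 338 and 334 in WT against 360 and 387 TPM in KO, 11.1% higher in KO with no overlap. The class median was a log2 difference of 0.14 as deposited and 0.011 after upper quartile scaling. *Psmc6* (chromosome 14, 45329788 to 45349705) had the largest difference above 0 of the 46 members. It was at 30.7 and 34.1 TPM in the WT libraries (32.4 ± 2.36, SD, n = 2) against 52.4 and 42.3 TPM in the KO libraries (47.3 ± 7.12, SD, n = 2). The log2 difference was 0.53 (SE 0.19, 95% interval 0.054 to 1.00, limma adjusted p = 0.464). It lay between 0.38 and 0.68 when each library was left out, but its unadjusted limma p was over 0.05 without either WT library or KO replicate 1, and after upper quartile scaling. None of its 31-base stretches occur in another expressed gene.

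The other ATPases were closer. *Psmc3*, the most abundant, was at 80.3 and 81.3 in WT against 77.3 and 105 TPM in KO, with the KO libraries on either side of WT (log2 difference 0.16, SE 0.20, limma adjusted p = 0.784). *Psmc5* stood at 58.9 and 55.7 in WT against 64.2 and 65.3 TPM in KO, a small difference without overlap (log2 0.18). *Psmc1*, *Psmc2* and *Psmc4* overlapped between genotypes, at log2 differences of -0.11, 0.12 and 0.13.

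The 11 non-ATPases form the base and lid of the regulatory particle. None had an unadjusted p under 0.05, 4 had both KO libraries above WT (36.4%, against 34.4% of all genes) and 1 below (9.09%, against 10.9%). Log2 differences ran from -0.15 (*Psmd7*) to 0.30 (*Psmd12*). *Psmd12*, a scaffold subunit of the lid, was at 47.6 and 38.4 in WT against 51.6 and 54.3 TPM in KO (log2 difference 0.30, SE 0.18, limma adjusted p = 0.563). *Psmd8*, the most abundant, was at 97.1 and 78.6 in WT against 79.7 and 85.8 TPM in KO (log2 difference -0.078), within the WT range. *Psmd3* was level, at 35.9 and 27.2 in WT against 30.5 and 32.0 TPM in KO.

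The ubiquitin-handling subunits did not share a direction. The ubiquitin receptor *Psmd4* was at 75.1 and 62.6 in WT against 80.4 and 75.6 TPM in KO, the KO pair just above WT (log2 difference 0.18). *Psmd2*, a scaffold of the base that docks ubiquitin-like proteins, was at 58.7 and 55.4 in WT against 70.4 and 59.1 TPM in KO, and *Psmd1*, the companion scaffold, was at 36.1 and 38.6 against 44.0 and 40.2 TPM. *Psmd14*, the deubiquitinase of the lid, was nearly level with a log2 difference of 0.037 (95% interval -0.37 to 0.44), and its partner *Psmd7* was at 44.5 and 41.1 in WT against 38.9 and 37.8 TPM in KO. *Psmd11* had the widest spread of the class, with 48.8 and 27.3 in WT against 37.5 and 49.1 TPM in KO. *Psmd6* and *Psmd13* overlapped between genotypes, at log2 differences of 0.15 and -0.075. Exons of *Psmd13* overlap those of *Sirt3* on the opposite strand, at a mean of 42.3 TPM.

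The activators, which open the core particle without ubiquitin, did not share a direction. *Psme4*, which encodes PA200, was at 12.4 and 14.4 in WT against 17.7 and 20.3 TPM in KO, both KO libraries above WT (log2 difference 0.47, SE 0.20, 95% interval -0.017 to 0.97, limma adjusted p = 0.478). It kept this direction with every library left out, between 0.37 and 0.58. *Psme1*, the alpha subunit of the interferon-induced activator PA28, was at 105 and 96.3 in WT against 88.7 and 81.7 TPM in KO, both KO libraries below (log2 difference -0.24, SE 0.16, limma adjusted p = 0.6004). Its partner *Psme2*, which lies next to it on chromosome 14, was at 71.2 and 80.6 in WT against 78.5 and 70.3 TPM in KO and overlapped (log2 difference -0.028). *Psme3*, the nuclear PA28 subunit, was at 31.2 and 19.4 in WT against 18.5 and 31.6 TPM in KO, a spread within each genotype much larger than the difference between them (log2 difference -0.026, SE 0.34).

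The inhibitor and chaperone genes had the lowest median level of the classes. Their median absolute log2 difference was 0.32 between the WT libraries, the widest of the classes, and 0.21 between the KO libraries, against 0.25 for the ATPases. The inhibitor *Psmf1* was at 15.1 and 13.1 in WT against 12.4 and 13.0 TPM in KO (log2 difference -0.13), both KO libraries below WT. *Psmg1*, the most abundant chaperone of the alpha ring, was at 19.8 and 23.0 in WT against 22.3 and 22.0 TPM in KO (log2 difference 0.050, SE 0.18, limma adjusted p = 0.930). *Psmd10* (gankyrin), a chaperone of the ATPase ring, was at 8.07 and 11.4 in WT against 14.1 and 11.3 TPM in KO (log2 difference 0.36, SE 0.25, limma adjusted p = 0.607). Apart from *Psmf1* the genotypes overlapped in every gene of this class. *Psmg3* ranged from 6.10 to 13.6 TPM within KO, *Psmg4* from 7.60 to 16.5 TPM within WT, and *Psmd9* from 10.1 to 18.8 TPM within WT and 12.7 to 22.6 TPM within KO. The unadjusted limma p was under 0.05 for *Psmg3* without KO replicate 1 and for *Psmg4* without WT replicate 3. *Psmd5*, a chaperone of the ATPase ring, and *Psmg2*, the partner of *Psmg1*, had log2 differences of 0.028 and 0.053.

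Other genes of the ubiquitin-proteasome pathway were read from lists of receptors, assembly factors, shuttles, the p97 segregase, NRF1 regulation, ubiquitin genes and MHC class I genes. Of 45 listed genes 42 could be fitted. Of these, 26 had a log2 difference above 0, 61.9%, against 66.7% of all genes. An unadjusted p under 0.05 with higher values in KO was found for 5, 11.9%, against 8.45% of all genes, and with lower values for 1, 2.38%, against 2.04%. None had an adjusted p under 0.05 (limma with Benjamini-Hochberg adjustment). *Ubb*, a gene that encodes ubiquitin, was at 290 and 171 in WT against 320 and 327 TPM in KO (log2 difference 0.54, limma adjusted p = 0.516), and 49.3% of its 31-base stretches occur in other expressed genes.

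Of the 7 genes on the list of NRF1 and NRF2 regulation, 2 had a log2 difference above 0, 28.6%, against 66.7% of all genes, and the list median was -0.085. *Nfe2l1* was at 21.2 and 26.0 in WT against 33.8 and 34.3 TPM in KO (log2 difference 0.52, SE 0.19, limma adjusted p = 0.464). *Ddi2*, the protease that activates NRF1, was at 5.96 and 10.3 in WT against 16.6 and 13.8 TPM in KO (log2 difference 0.87, SE 0.29, limma adjusted p = 0.464). *Ngly1*, the glycanase that acts before it, was at 10.9 and 10.97 in WT against 13.8 and 13.1 TPM in KO (log2 difference 0.27, limma adjusted p = 0.604). The genotypes did not overlap in *Nfe2l1*, *Ddi2* and *Ngly1*. *Ddi2* was listed with the shuttle factors. On the NRF1 and NRF2 list *Nfe2l2*, *Keap1*, *Mafg* and *Mafk* had log2 differences of -0.085, -0.039, -0.27 and -0.16, and the genotypes overlapped in each. The 6 members with an element core had log2 differences of -0.12 (*Psmb5*), 0.11 (*Psmb6*), 0.53 (*Psmc6*), 0.28 (*Psmd9*), 0.30 (*Psmd12*) and 0.47 (*Psme4*). All but *Psmb5* were thus above 0, as 66.7% of all genes were. After upper quartile scaling the values were -0.25, -0.024, 0.40, 0.16, 0.17 and 0.35 in the same order. A link of these values to NRF1 was not tested. *Maff*, a small MAF protein that pairs with NRF1, was at 4.22 and 4.72 in WT against 1.64 and 1.95 TPM in KO (log2 difference -0.97, SE 0.24, limma adjusted p = 0.464).

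Of 6 fitted genes of the p97 segregase, which extracts ubiquitinated proteins for the proteasome, 2 cofactors had an unadjusted p under 0.05. Both were higher in KO, where 8.45% of all genes were called, and 11.9% of the 42 genes of all lists. A list of 6 genes is too short for a result about the segregase. *Ufd1* was at 11.2 and 11.4 in WT against 21.9 and 19.0 TPM in KO (log2 difference 0.80, SE 0.19, limma adjusted p = 0.458), with the libraries of each genotype close together. *Ubxn1* was at 135 and 97.4 in WT against 184 and 172 TPM in KO (log2 difference 0.63, SE 0.21, limma adjusted p = 0.464). With 1 library left out in turn, *Ufd1* kept an unadjusted limma p under 0.05 each time. *Ubxn1* lost it without WT replicate 3 or either KO library, *Ddi2* and *Nfe2l1* without WT replicate 2 or either KO library, and *Maff* without WT replicate 3, and *Ubxn1* and *Nfe2l1* also lost it after upper quartile scaling.

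Among the 9 fitted genes bound to the proteasome or needed to build it, none had an unadjusted p under 0.05. *Adrm1*, a ubiquitin receptor of the regulatory particle, was at 64.4 and 43.6 in WT against 56.6 and 69.8 TPM in KO (log2 difference 0.24, limma adjusted p = 0.719). *Usp14*, a deubiquitinase bound to that particle, was at 22.0 and 14.9 in WT against 17.5 and 23.5 TPM in KO (log2 difference 0.15, limma adjusted p = 0.839). Both overlapped between genotypes. *Sem1*, a small lid subunit whose symbol falls outside the naming rule, was at 70.5 and 76.1 in WT against 102 and 90.5 TPM in KO (log2 difference 0.39, limma adjusted p = 0.479). *Pomp*, which guides the assembly of the core, was at 158 and 170 in WT against 152 and 145 TPM in KO, both KO libraries below WT (log2 difference -0.14, limma adjusted p = 0.744).

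**Figure D5:**
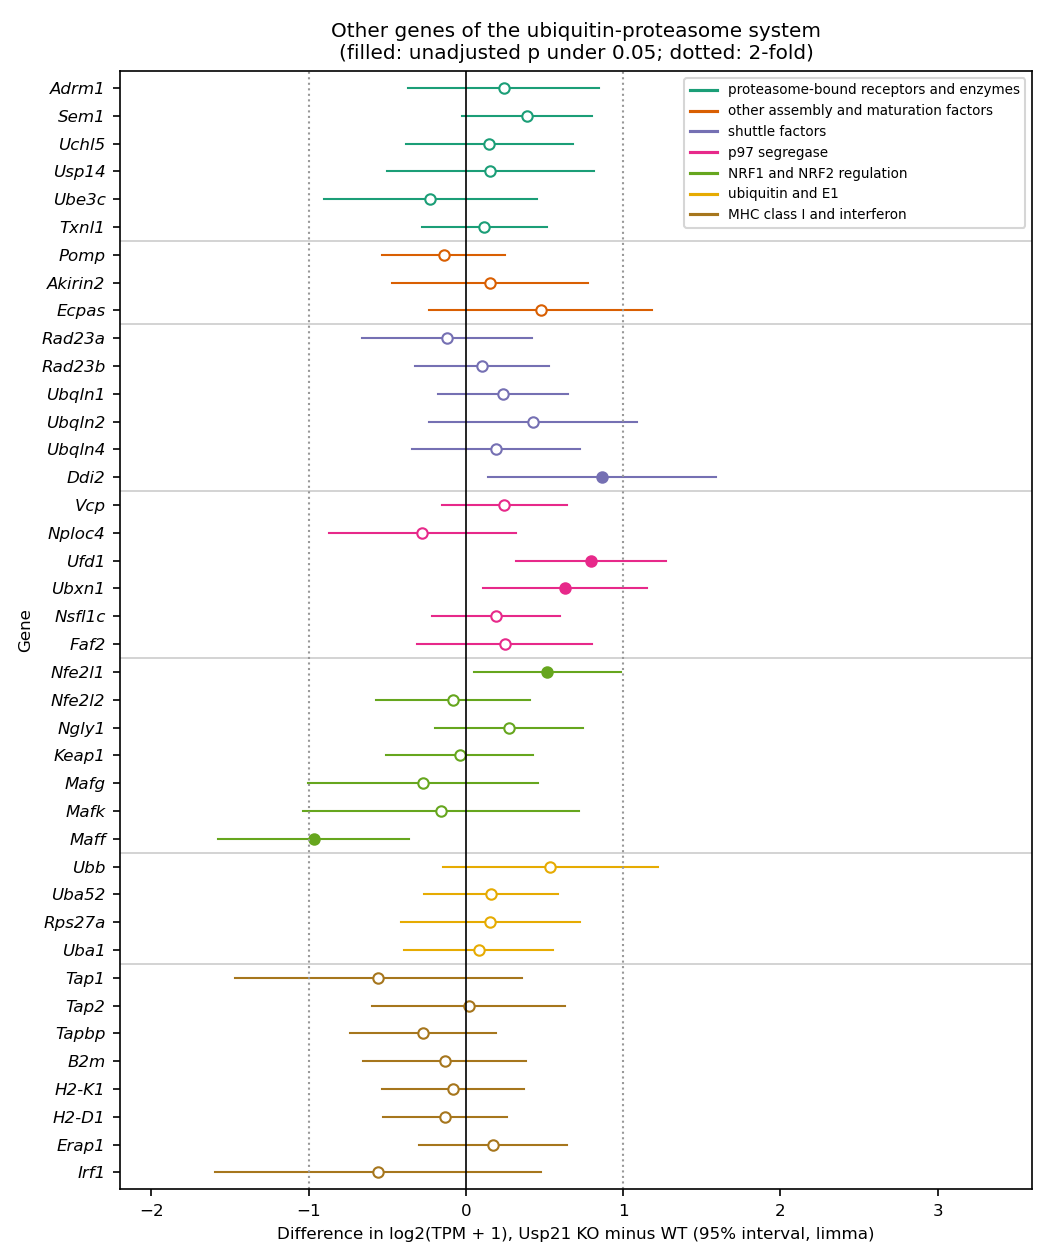
Difference between genotypes in log2(TPM + 1), *Usp21* KO minus WT, with 95% intervals from limma, for 40 other genes of the ubiquitin-proteasome pathway coloured by list, with dotted lines at 2-fold. Filled points have an unadjusted p under 0.05, and they are *Ddi2* at 0.87, *Ufd1* at 0.80, *Ubxn1* at 0.63, *Nfe2l1* at 0.52 and *Maff* at -0.97.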

How the data were processed

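Liver RNA was sequenced in 2 WT and 2 *Usp21* KO libraries. The deposited TPM values were made by the authors, and their processing notes name Salmon, HTSeq, edgeR, Partek, deepTools and mm10. Versions, annotation release and strand setting are not given in the sources used here. A second deposited table holds CPM values that the authors scaled by TMM, treated here as a signal. It kept whole reads, recovered within a tolerance of 0.02 for 100% of values, at 102898 to 148164 reads a library. The other 2 tables hold log values of the same libraries and were not used.

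Genes whose mean reached 1 TPM were tested, *Usp21* KO against WT, with limma 3.58.1 (R 4.3.3, empirical Bayes with a trend, two-sided) on log2(TPM + 1), which understates changes of low genes, with Benjamini-Hochberg adjustment over all 9581 genes. edgeR 4.0.16 and DESeq2 1.42.0 were run on the recovered reads as alternatives, and the scripts were tested on simulated data. TPM ratios were compared by an exact permutation test. Positions, exon overlaps and 31-base stretches came from GENCODE M21 (GRCm38), and promoter windows from RefSeq.

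Members and lists were chosen with earlier results of these data known. Full values are given for the immunoproteasome and the constitutive protease subunits, for the highest member and the largest difference of each class, for members with an unadjusted p under 0.05 and for the 3 smallest differences. Of the other lists they are given for genes with an unadjusted p under 0.05 and for *Nfe2l1*, *Ddi2*, *Pomp*, *Adrm1*, *Usp14* and *Nlrc5*. Values of further genes were added after they were seen. Some listed genes are counted but not reported here by name.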

Additional observations from a re-analysis of the deposited data

How the results depend on the processing

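With 2 libraries a genotype the spread is poorly known, and the depth behind the TPM values is unknown. The number of members above 0 was 28, and 25 to 31 with each library left out. The number with an unadjusted p under 0.05 was 2, and 1 to 3, with 1 without WT replicate 2 and 1 without WT replicate 3 (limma). None passed the adjusted threshold in any limma fit on the TPM values of all 4 libraries. The fits on CPM or recovered reads (limma, edgeR and DESeq2) held 8 of the 46 members, at 5 reads or fewer a library. That is too few reads for a call, so the lack of calls there says nothing about the members. The median log2 difference of the 46 members on TPM was 0.073, and 0.032 to 0.12 with each library left out, but -0.056 after upper quartile scaling. Of the other pathway genes, 6 had an unadjusted p under 0.05, and 3 to 6 with each library left out, the lowest without KO replicate 1. The log2 difference between genotypes in the mean TPM ratio of *Psmb8* to *Psmb5* was 0.0042, and -0.38 to 0.31 with each library left out. For the ratio of *Psmb9* to *Psmb6* this difference was then -0.86 to -0.24, and for that of *Psmb10* to *Psmb7* -1.02 to -0.79.

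Among the CPM values 38 of the 46 members were at 0 in every library and the other 8 had at most 5 reads, as 428 of 686 genes that reached 100 TPM throughout were at 0 there. On those 8, limma on CPM, edgeR and DESeq2 gave 5, 4 and 4 genes above 0, an unadjusted p under 0.05 for 0, 0 and 0, and medians of 1.34, 1.10 and 0.68. Of 20 other genes they called 1, 0 and 0. Log2 differences turned to 1.68, 2.29 and 1.49 for *Psmb10*, to -1.56, -2.36 and -1.52 for *Nfe2l1* and to 1.47, 2.27 and 1.26 for *Pomp*. *Psmb7* turned to -0.11 (edgeR) and -0.23 (DESeq2), and *Maff* to 0.0035 (limma on CPM). *Psmb10* had 1 read, in KO replicate 3, *Nfe2l1* had 1, in WT replicate 2, and *Pomp* had 1, in KO replicate 1, so these values rest on 1 read each and give no direction.

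Of 314 values of single genes under alternatives, 283 kept their direction. The 283 include 29, 28 and 29 values from fits without a filter, with a minimum of 5 TPM and without moderated variances. Such fits cannot change a log2 difference, so their values had to keep it. Upper quartile scaling turned *Psma5* to -0.12, *Psmb6* to -0.024 and *Psmg1* to -0.079, and a pseudocount of 0.1 turned *Psmd3* to 0.00014. Leaving out 1 library turned *Psma5* (-0.012 to 0.030), *Psmb6* (-0.041 to 0.26), *Psmb8* (-0.41 to 0.13), *Psmc3* (-0.063 to 0.38), *Psmd3* (-0.19 to 0.19), *Psmd8* (-0.23 to 0.074), *Psme3* (-0.40 to 0.35), *Psmg1* (-0.052 to 0.15), *Adrm1* (-0.036 to 0.52) and *Usp14* (-0.11 to 0.42). *Psma3* summed with *Gm13835*, an alternative chosen after seeing the data, turned to 0.30, with 29 members above 0. Over all members, 24 kept their sign with each library left out and 22 did not. A pseudocount of 5 turned no named gene. The filter and variance settings could turn none. No paired analysis was possible because the labels give no pairing of libraries.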

Other observations

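Markers of the remaining liver cells were summed in the same way. Sinusoidal endothelium markers were at 40.7 and 31.6 in WT against 33.6 and 49.6 TPM in KO, and overlapped. Cholangiocyte markers were at 1.39 and 3.19 in WT against 4.56 and 3.82 TPM in KO. Both KO libraries were above WT, but only 1 of the 4 cholangiocyte markers reached a mean of 1 TPM. Stellate cell markers were at 52.9 and 44.6 in WT against 82.9 and 62.2 TPM in KO, both KO libraries above WT, with no marker of the 4 fitted under an unadjusted p of 0.05 (limma). Erythroid markers were at 598 and 564 in WT against 577 and 437 TPM in KO. An unadjusted limma p under 0.05 was found for *Lyve1* of the endothelium list, higher in KO, and *Hba-a1* of the erythroid list, lower in KO. Of all genes 10.5% had such a p.

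Exons of 13 proteasome genes overlap those of another gene, which matters where strand was not used in the quantification. Besides *Psmb7* and *Psmd13*, these include *Psmb9* with *Tap1* and *Psme1* with *Emc9*, both on opposite strands, with means of 5.78 and 28.4 TPM for the overlapping genes.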
